A study of Homo sapiens with 3 samples.

Results

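The AP-1 and immediate early factors examined here were FOS, FOSB, FOSL1, FOSL2, JUN, JUNB, JUND, ATF3, EGR1 and IER2, chosen by gene symbol, which makes 10 of the 36601 genes in the count tables. They were measured in OVCAR3, a long-established human line derived from high-grade serous ovarian cancer (HGSOC), by droplet-based single-cell RNA-seq of the 3′ ends of transcripts. One culture received DMSO, another 50 μM RAC1i (NSC23766, which blocks activation of the small GTPase RAC1), and the last 50 μM RAC1i together with 5 μM EZH2i (Combo; GSK126 blocks the histone methyltransferase EZH2). All were exposed for 48 hours, all carried DMSO as the solvent, all had been through fewer than 15 passages, and all were detached with trypsin before capture. Each condition was 1 library of 1 cell line, so no test between conditions was possible. Every interval is an exact 95% interval that covers counting error only, and not the variation between cultures.

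AP-1 is a dimer of basic leucine zipper proteins. FOS family proteins pair with JUN family proteins, whereas JUN proteins can also pair with each other and with ATF proteins. The genes belong to, or overlap with, the immediate early genes, which are transcribed within minutes of a growth factor, a cytokine, a stress or a change of adhesion without new protein synthesis, and whose mRNAs are mostly short-lived. RAC1 is known to signal to the JNK and p38 kinases, which phosphorylate JUN and ATF proteins, and to the actin cytoskeleton, which sets the activity of the serum response factor at FOS and EGR1.

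DMSO gave 7531 kept cells, RAC1i 10215 and Combo 8239, in which the median cell held 26750, 20989 and 24953 unique molecular identifiers (UMIs, each marking 1 captured mRNA molecule). The level of a gene is the sum of its UMIs over kept cells as a share of the total UMIs there, times 1e6 (CPM). A 3′ count does not grow with transcript length, but capture can differ between genes, so levels were compared within a gene, and the sums over a family are sums of UMIs rather than of transcripts. All 10 epithelial markers examined were above 1 CPM in each library, as against at most 1 of 6 fibroblast, 1 of 4 endothelial and 1 of 6 leukocyte markers, all of those under 6 CPM. Between 15 and 23 cell barcodes were shared by any pair of libraries. The cultures held no cell type that lacks these genes, so the UMIs contributed by free RNA were not measured.

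The promoters are shown first so that members with levels that differed in the same direction can be compared base by base. JUNB lies at chr19:12791486-12793315 and IER2 at chr19:13150411-13154911, both on the plus strand, and their start sites are 358.925 kb apart (GRCh38, GENCODE 44). FOSB and JUND are on the same chromosome, 32317.585 kb and 5131.211 kb from IER2. JUN, JUNB and JUND are genes of 1 exon, EGR1 and IER2 have 2, and FOS, FOSB, FOSL1, FOSL2 and ATF3 have 4. Of the 10 genes, 9 matched a promoter in the RefSeq table (GRCh38.p14; FOSL1 did not), and ATF3 had 2, at alternative starts 43354 bases before and 6257 bases after its main start. The 250 bases before the start follow for members that were higher in the treated libraries (JUNB, IER2 and the upstream start of ATF3), for those that were lower by summed UMIs (FOS, FOSB and EGR1), and for JUN. Capitals mark TGACGT, TGACATCA and the CArG box, and a letter string was sought on both strands.
JUNB, chr19:12791236-12791485, plus strand: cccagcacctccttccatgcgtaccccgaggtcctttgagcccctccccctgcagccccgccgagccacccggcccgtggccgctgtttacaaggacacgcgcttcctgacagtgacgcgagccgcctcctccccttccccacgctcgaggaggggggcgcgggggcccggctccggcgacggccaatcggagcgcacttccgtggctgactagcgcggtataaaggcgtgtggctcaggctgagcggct
IER2, chr19:13150161-13150410, plus strand: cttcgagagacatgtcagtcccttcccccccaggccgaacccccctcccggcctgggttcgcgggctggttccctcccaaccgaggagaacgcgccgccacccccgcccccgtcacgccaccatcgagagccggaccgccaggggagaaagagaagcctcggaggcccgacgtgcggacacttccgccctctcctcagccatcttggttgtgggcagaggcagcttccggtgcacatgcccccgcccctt
ATF3, chr1:212565157-212565406, plus strand: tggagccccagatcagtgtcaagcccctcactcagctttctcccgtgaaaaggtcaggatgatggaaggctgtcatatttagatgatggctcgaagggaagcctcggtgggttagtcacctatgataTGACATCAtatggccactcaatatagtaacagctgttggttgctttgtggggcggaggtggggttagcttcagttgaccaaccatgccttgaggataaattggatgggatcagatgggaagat
FOS, chr14:75278578-75278827, plus strand: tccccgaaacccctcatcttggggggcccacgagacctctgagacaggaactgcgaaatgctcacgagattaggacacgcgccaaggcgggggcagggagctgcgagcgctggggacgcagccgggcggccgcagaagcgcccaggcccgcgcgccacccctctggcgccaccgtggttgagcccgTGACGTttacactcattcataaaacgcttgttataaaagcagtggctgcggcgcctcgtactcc
FOSB, chr19:45467746-45467995, plus strand: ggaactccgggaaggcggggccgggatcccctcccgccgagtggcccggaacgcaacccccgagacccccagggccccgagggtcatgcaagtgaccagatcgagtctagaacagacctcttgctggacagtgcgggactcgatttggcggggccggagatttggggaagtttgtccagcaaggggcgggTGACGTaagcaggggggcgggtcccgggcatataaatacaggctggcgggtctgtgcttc
EGR1, chr5:138465229-138465478, plus strand: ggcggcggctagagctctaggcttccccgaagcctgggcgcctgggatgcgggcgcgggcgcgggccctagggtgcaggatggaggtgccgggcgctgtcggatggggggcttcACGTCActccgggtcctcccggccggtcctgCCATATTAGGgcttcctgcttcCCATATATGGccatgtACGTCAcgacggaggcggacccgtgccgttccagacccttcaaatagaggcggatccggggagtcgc
JUN, chr1:58784048-58784297, minus strand: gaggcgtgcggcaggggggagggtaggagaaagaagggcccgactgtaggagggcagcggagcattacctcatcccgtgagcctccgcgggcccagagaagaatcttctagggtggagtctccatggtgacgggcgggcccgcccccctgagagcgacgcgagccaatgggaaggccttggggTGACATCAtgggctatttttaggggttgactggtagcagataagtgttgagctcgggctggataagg

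TGACGT, the core shared by cyclic AMP response elements, stood 64 to 59 bases before the start of FOS, 60 to 55 before FOSB, 66 to 61 before FOSL2, and at 2 places in EGR1, 136 to 131 and 67 to 62 bases before the start. JUND held it too, once within the longer palindrome TGACGTCA. It was in 5 of the 10 windows of the members, against 7.1% of all 35116 windows of the same length. The window of EGR1 held 2 CArG boxes, the site of the serum response factor, and no other window of a member held one (1.16% of all windows do). Only these 250 bases were searched, and neither FOSL1 nor the main start of ATF3 was covered. The 3′ counts do not show which start of ATF3 was used. TGACATCA, a variant site bound by JUN and ATF proteins, stood 67 to 60 bases before JUN and 123 to 116 bases before the upstream start of ATF3 (2.37% of all windows). None of the strings, TGANTCA (6.57% of all windows) and the NF-kB site (9.96%) included, was in the JUNB, IER2 or second ATF3 window. These are matches of letters, and no binding was measured.

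Of the 10 members, 4 were over 2-fold higher in RAC1i than in DMSO (JUNB, ATF3, IER2 and FOSL1), 2 were over 2-fold lower (FOSB and EGR1), and 4 lay within 2-fold (FOS, FOSL2, JUN and JUND). The same genes made up each class in Combo over DMSO. Among all genes that reached 10 CPM in at least one library of the pair, 13.1% were over 2-fold higher and 24.6% over 2-fold lower in RAC1i than in DMSO, and 11.8% and 22.8% in Combo. The median log2 ratio of the members was 0.21 for RAC1i and 0.23 for Combo, beside −0.20 and −0.18 over all 8778 and 8745 genes. FOSL1 did not reach 10 CPM in any library, and ATF3 reached it only in the treated ones. The other 8 members reached it in DMSO, and of these 2 were over 2-fold higher in RAC1i (JUNB and IER2) and 2 over 2-fold lower. Among all 8145 genes with 10 CPM in DMSO the shares were 8.83% and 26.5%, and so few members cannot be set apart from them. Both comparisons use the same DMSO library.

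**Figure D1:**
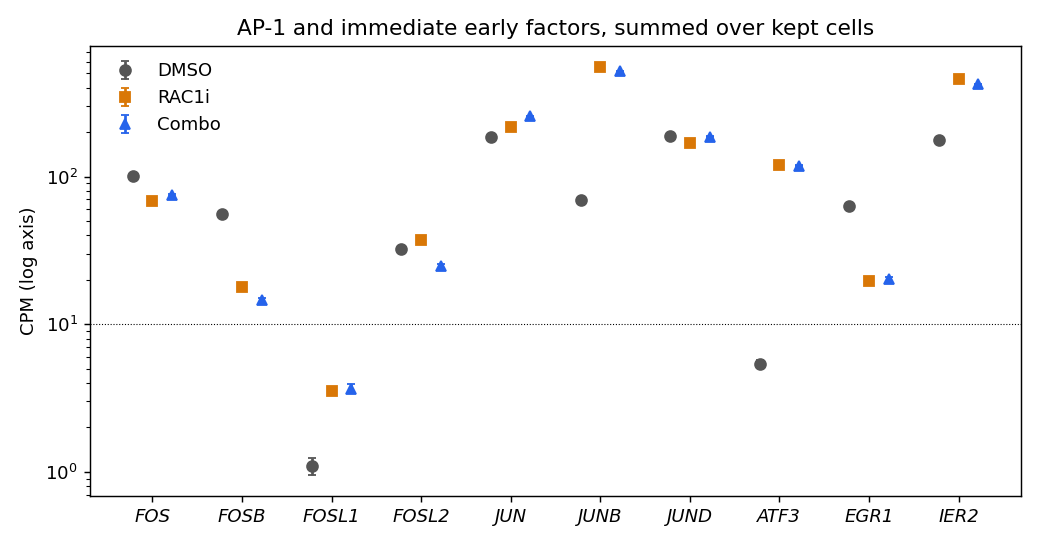
Level of each member in the 3 libraries, as CPM on a log axis, with the dotted line at 10 CPM; bars are exact Poisson 95% intervals, mostly smaller than the points. JUNB, ATF3 and IER2 stand higher in RAC1i and Combo than in DMSO, FOSB and EGR1 stand lower, and the 2 treated libraries lie close together for most members.

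In the FOS family, whose proteins need a JUN partner to bind DNA, the classic inducible members were lower in the treated libraries by summed UMIs. FOS, the founding member, was at 101 CPM (99.7 to 102) in DMSO as against 68.5 CPM (67.4 to 69.6) in RAC1i and 75.3 CPM (74.1 to 76.4) in Combo, a ratio to DMSO of 0.678 and 0.745. This direction held for UMIs summed over cells and turned with the mean over cells of CPM (log2 ratios of 0.18 and 0.35). FOSB, which is induced with FOS, was at 55.7 CPM in DMSO, beside 18.0 CPM in RAC1i and 14.6 CPM in Combo. RAC1i cells thus held 0.322 (0.311 to 0.334) and Combo cells 0.263 (0.252 to 0.273) of the DMSO level, the lowest ratios of the 4 genes. With the mean over cells of CPM, its log2 ratio was −0.85 in RAC1i, within 2-fold, and −1.01 in Combo. FOSL1 and FOSL2 encode FOS-related proteins that lack the strong activation domain of FOS. FOSL1 was scarce, with 217 UMIs in all DMSO cells (1.09 CPM) as against 831 (3.54 CPM) in RAC1i and 778 (3.66 CPM) in Combo, ratios of 3.24 (2.79 to 3.78) and 3.35 (2.88 to 3.92). FOSL2 was at 32.5 CPM in DMSO, compared with 37.3 CPM in RAC1i and 24.8 CPM in Combo. It was thus higher in RAC1i (1.15, 1.11 to 1.19) and lower in Combo (0.765, 0.737 to 0.793). Summed over the 4 genes, the family was at 190.3 CPM in DMSO as against 127 CPM in RAC1i and 118 CPM in Combo. By this sum the treated libraries held 0.669 and 0.622 of the DMSO level. FOS, whose direction turned, made up 53.1%, 53.8% and 63.6% of these UMIs, so the family direction is given for summed UMIs only.

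By summed UMIs, the JUN family differed in the other direction, mainly through 1 gene. JUNB, whose protein binds the same sites as JUN and restrains it in several settings, was at 69.2 CPM (68.0 to 70.3) in DMSO, beside 555 CPM (552 to 558) in RAC1i and 516 CPM (513 to 519) in Combo. That is 8.02-fold (7.88 to 8.16) and 7.46-fold (7.33 to 7.60) higher. Only 123 of the 8778 genes had a higher ratio in RAC1i and 105 of 8745 in Combo. JUN, the main activator of the family, was at 186 CPM, 216 CPM and 257 CPM, a ratio to DMSO of 1.16 (1.14 to 1.17) in RAC1i and 1.38 (1.36 to 1.40) in Combo. With the mean over cells of CPM its log2 ratio was 0.85 and 1.04. JUND, which most cells express without stimulation, was at 187 CPM, 168 CPM and 187 CPM. By summed UMIs JUND was lower in RAC1i than in DMSO (0.898, 0.885 to 0.910), a log2 ratio of −0.16 beside the median of −0.20 over all genes. Its direction in Combo turned with the scaling, the limits on barcodes, thinning and the mean over cells (log2 ratio of −0.07 to 0.11 over the settings tried). The family total was 443 CPM in DMSO, compared with 939 CPM in RAC1i and 960.0 CPM in Combo. Without a correction for capture, JUNB made up 15.6% of the UMIs of the family in DMSO, 59.1% in RAC1i and 53.8% in Combo, whereas JUND made up 42.3%, 17.9% and 19.5%.

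ATF3, a stress-induced member of the ATF family that pairs with JUN proteins and acts mostly as a repressor, had the greatest ratio of the 10. It was at 5.37 CPM (5.05 to 5.70) in DMSO as against 120 CPM (118 to 121) in RAC1i and 119 CPM (117 to 120) in Combo, 22.3-fold (21.0 to 23.8) and 22.2-fold (20.8 to 23.6) higher. In RAC1i over DMSO 41 genes ranked above it, and 32 in Combo over DMSO. IER2, a nuclear immediate early protein outside the leucine zipper family, was at 177 CPM in DMSO, beside 457 CPM in RAC1i and 423 CPM in Combo cells. The ratios were 2.58 (2.55 to 2.61) and 2.39 (2.36 to 2.42). EGR1, a zinc finger factor induced by ERK signalling through the serum response factor, was at 63.5 CPM in DMSO, compared with 19.6 CPM in RAC1i and 20.3 CPM in Combo, or 0.308 (0.298 to 0.319) and 0.319 (0.308 to 0.330) of the DMSO level. With the mean over cells of CPM, the log2 ratio of EGR1 was −1.19 in RAC1i and −0.87 in Combo, the latter within 2-fold. JUNB, IER2 and ATF3 were thus higher in the same libraries in which FOSB and EGR1 were lower.

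Adding EZH2i to RAC1i left every member within 2-fold, where 0.0269% of 7443 genes were over 2-fold higher and 0.0134% over 2-fold lower. FOSL2 differed most, at 0.665 (0.642 to 0.688) of the RAC1i level, and 33 of the 7443 genes had a lower ratio (0.484% were over 1.5-fold lower). FOSB was at 0.816 (0.779 to 0.855) of the RAC1i level. JUN was 1.19-fold (1.18 to 1.20) higher, JUND 1.11-fold and FOS 1.10-fold. JUNB and IER2 were slightly lower, at 0.930 and 0.926. ATF3 (0.992, 0.975 to 1.01) and EGR1 (1.04, 0.994 to 1.08) had intervals that include 1.

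Depth sets how many cells show a UMI of a gene, so cells were first thinned, by random draws, to 5000 UMIs each. The 806 DMSO, 1015 RAC1i and 885 Combo cells with fewer UMIs were left out. JUNB was detected in 27.9% of thinned DMSO cells (26.8% to 29.0%), 79.3% of RAC1i cells (78.5% to 80.1%) and 77.7% of Combo cells (76.8% to 78.7%). Unthinned, the shares were 65.1%, 95.1% and 94.3%. IER2 went from 50.3% to 80.8% and 79.6% of thinned cells. ATF3 was detected in 2.22% of DMSO cells (1.88% to 2.60%), 35.5% of RAC1i cells and 34.0% of Combo cells, and unthinned in 9.83%, 63.1% and 62.9%. A cell of a treated library that showed JUNB also held more of it, with a mean of 4.01 UMIs per positive thinned cell in RAC1i as against 1.24 in DMSO.

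FOSB was detected in 20.2%, 8.74% and 7.52% of thinned cells of DMSO, RAC1i and Combo, and EGR1 in 23.2%, 8.49% and 8.87%. Unthinned, FOSB was in 52.0%, 28.9% and 26.3% of cells and EGR1 in 59.6%, 26.3% and 27.3%. FOS had no one direction by this measure. It was in 31.9% of DMSO cells thinned to 5000 UMIs, 27.5% of RAC1i cells and 29.2% of Combo cells, but unthinned in 61.9%, 62.1% and 64.9%, and thinned to 2500 UMIs in 17.5%, 17.9% and 19.8%. JUN was detected in 50.0%, 60.5% and 64.7%, JUND in 56.8%, 52.5% and 56.6%, and FOSL2 in 13.5%, 17.1% and 11.2%. FOSL1 stayed at 0.416%, 1.60% and 1.51%. A thinned cell showed a median of 3 of the 10 members in DMSO and 4 in RAC1i and Combo. Cells with none made up 7.27% of DMSO, 1.29% of RAC1i and 1.37% of Combo, and cells with 6 or more 4.27%, 11.25% and 11.2%.

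**Figure D2:**
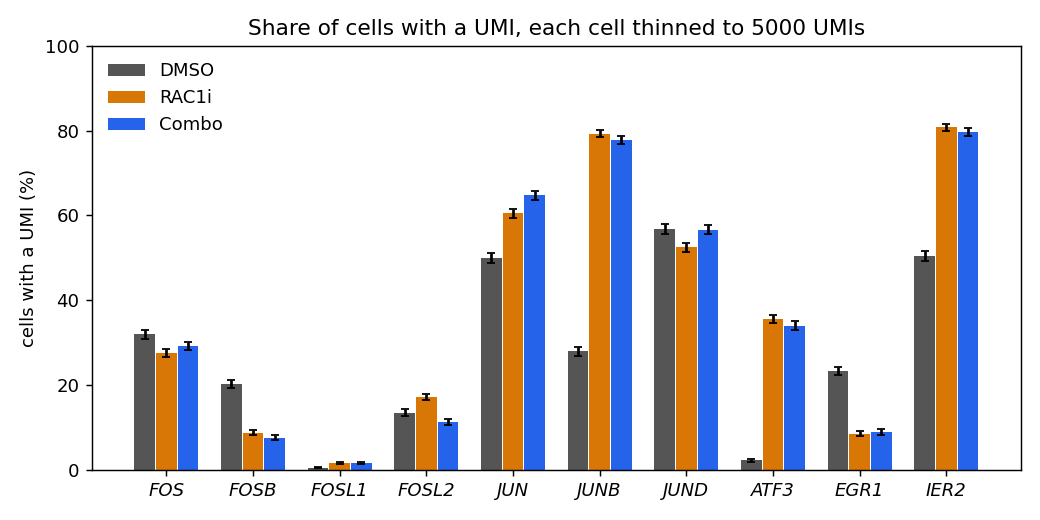
Share of cells with at least 1 UMI of each member, with every cell thinned to 5000 UMIs, in DMSO (6725 cells), RAC1i (9200) and Combo (7354); bars start at 0 and lines are Clopper-Pearson 95% intervals. The share was above 75% for JUNB and IER2 in both treated libraries and stayed below 10% for FOSB, EGR1 and FOSL1 there.

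The UMIs of EGR1 were more concentrated in few cells in the treated libraries. The 1% of cells with the most EGR1 held 6.22% of its UMIs in DMSO, 17.9% in RAC1i and 21.7% in Combo. Variation beyond counting noise, as a coefficient of variation across thinned cells, was 0.867 for EGR1 in DMSO, 2.52 in RAC1i and 2.77 in Combo. ATF3 showed the opposite, with 31.4% of its UMIs in the top 1% of DMSO cells and 11.5% and 11.4% in the treated libraries. This share is greater for a gene with fewer UMIs. FOSB, with a ratio close to that of EGR1, went from 7.26% in DMSO to 10.9% and 11.7%, FOS from 6.09% to 8.98% and 10.6%, and JUNB from 5.94% to 5.28% and 4.93%.

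The levels depended on how many UMIs a cell held, and for most members the dependence ran in opposite directions in DMSO and in the treated libraries. Cells were placed in bins with the same bounds in every library, a choice made after seeing the data. In DMSO, FOS was at 21.7 CPM in the 806 cells below 5000 UMIs and at 20.1 CPM in the 854 cells from 5000 to 10000, but between 98.2 and 114 CPM in the bins above. In RAC1i the same bins ran from 263 CPM below 5000 UMIs and 135 CPM from 5000 to 10000 down to 52.5 CPM at 40000 or more, and in Combo from 292 to 56.7 CPM. The RAC1i level of FOS was therefore 12.1 and 6.73 times that of DMSO in the 2 shallowest bins, 0.892 of it from 10000 to 20000 UMIs, and 0.576, 0.499 and 0.535 of it in the 3 deepest. In Combo it was 1.13 times the DMSO level from 10000 to 20000 UMIs and 0.717, 0.575 and 0.578 of it above.

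FOSB and EGR1 crossed in the same way. FOSB in RAC1i was 6.50 and 3.49 times the DMSO level in the bins below 10000 UMIs, and 0.394, 0.278, 0.269 and 0.248 of it in the bins above. EGR1 in RAC1i was 2.58 and 1.71 times the DMSO level below 10000 UMIs and from 0.264 to 0.366 of it above. JUN, near the DMSO level when summed, was 11.8 and 6.02 times as high in the RAC1i cells below 10000 UMIs, 1.53 times from 10000 to 20000, and within 0.935 to 1.01 of the DMSO level above 20000. In Combo JUN remained higher in the deep bins, by 1.20-fold to 1.27-fold. JUND crossed by less. In RAC1i it was 1.23 and 1.14 times the DMSO level below 10000 UMIs, 1.02 times (0.975 to 1.07) from 10000 to 20000, and 0.932, 0.825 and 0.895 of it above.

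JUNB and IER2 were higher than in DMSO at every depth, and more so in shallow cells. JUNB in RAC1i ranged from 1367 CPM below 5000 UMIs down to 436 CPM at 40000 or more, while in DMSO it went from 31.6 to 69.0 CPM, so that the ratio ran from 43.3 down to 6.32. IER2 in RAC1i went from 893 to 393 CPM and its ratio from 13.1 to 2.19. ATF3 differed from them in its treated levels, which lay between 109.6 and 126 CPM in all 6 bins for RAC1i and between 110.3 and 128 CPM for Combo. In DMSO it was at 2.94 CPM below 5000 UMIs (8 UMIs in all) and at 6.20 CPM at 40000 or more. Its ratio in RAC1i was 41.5 (20.8 to 96.7), 24.4 (16.8 to 36.9), 28.7, 30.6, 20.5 and 18.6 (16.9 to 20.5) from the first bin to the last, with no steady order in the first 4, and in Combo it was 39.2 in the first and 17.8 in the last. With only cells of at least 10000 UMIs, the classes were the same, with 4 members over 2-fold higher and 2 over 2-fold lower in each treated library, and FOS had a log2 ratio of −0.74 in RAC1i and −0.59 in Combo.

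**Figure D3:**
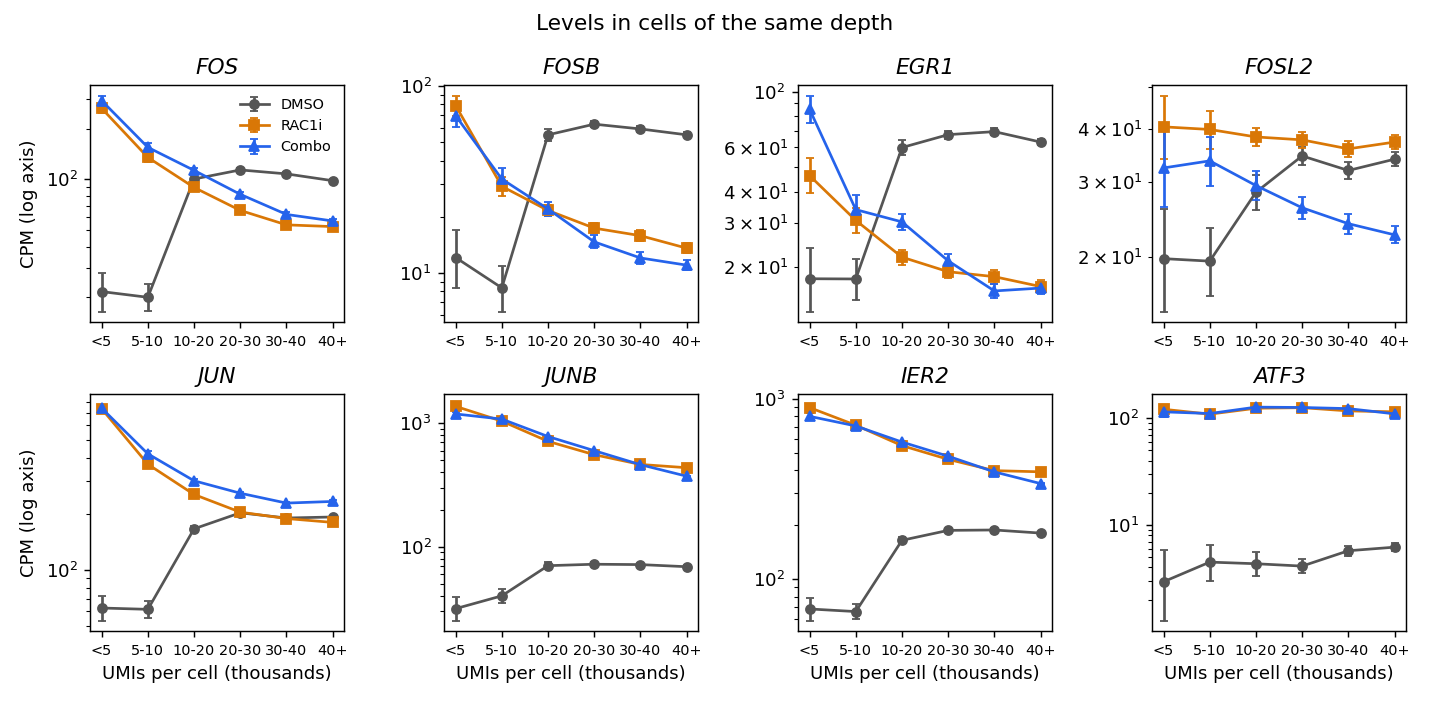
Level of 8 members (CPM, log axis, with a scale of its own in each panel) in bins of UMIs per cell that have the same bounds in the 3 libraries; lines are Poisson 95% intervals. FOS, FOSB, EGR1 and JUN were low in the DMSO cells below 10000 UMIs and high in the treated cells of that depth, whereas ATF3 was level across depth in RAC1i and Combo.

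The shallow cells of the libraries also differed in their mitochondrial share. Below 5000 UMIs the median DMSO cell had a share of 1.12%, the median RAC1i cell 6.33% and the median Combo cell 7.02%, and from 5000 to 10000 UMIs it was 0.775%, 2.72% and 3.44%. In DMSO, 68.2% of the lowest quintile of cells by depth were also in the lowest quintile by mitochondrial share, as against 8.08% in RAC1i and 7.23% in Combo. DMSO cells in the lowest quintile by mitochondrial share held 18.9 CPM of FOS, 5.93 CPM of FOSB and 11.6 CPM of EGR1, while those in the highest quintile held 134 CPM, 79.7 CPM and 82.3 CPM. JUND differed little between the same quintiles (170 and 165 CPM). In RAC1i, FOS went from 62.7 to 115 CPM across the quintiles and ATF3 from 148 down to 73.0 CPM. The part of the mitochondrial share in these differences was not tested.

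Across quintiles by cell cycle genes the members differed less. Between the lowest and the highest quintile of RAC1i cells by summed S phase genes, JUNB went from 608 to 442 CPM and IER2 from 480.4 to 392 CPM, and FOS and FOSB stayed within 1.03-fold. Between the quintiles by summed G2M genes, JUNB in RAC1i went from 660.3 to 459 CPM. In DMSO, FOS went from 121 to 85.3 CPM across the G2M quintiles, and JUND from 172 to 217 CPM across the S phase quintiles. Between the same G2M quintiles of DMSO the median depth went from 25989 to 33916 UMIs and the median mitochondrial share from 7.0% to 5.07%, and in RAC1i the depth from 17925 to 28582 UMIs; their part was not tested. In Combo the members went in different directions from the lowest to the highest G2M quintile. JUNB went from 588 to 449 CPM, but ATF3 from 91.3 to 128 CPM, FOS from 68.4 to 78.7 CPM and JUND from 173 to 189 CPM, and EGR1 and FOSL1 were also higher in the highest.

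In the treated libraries, JUNB and IER2 were highest in the cells with the most metallothionein transcripts, which encode small zinc-binding proteins. Across the quintiles of RAC1i cells by summed metallothioneins JUNB went from 284 to 396, 557, 722 and 935 CPM, and IER2 from 264 to 705 CPM. The Combo quintiles ran from 278 to 911 CPM for JUNB and from 246 to 710.4 CPM for IER2. FOS went from 45.8 to 107 CPM in RAC1i and from 53.1 to 127 CPM in Combo, and FOSB was 2.67-fold and 2.14-fold higher in the highest quintile than in the lowest. ATF3 was nearly level, at 108 CPM in the lowest and 126 CPM in the highest quintile of RAC1i, and 117 and 123 CPM in Combo. Depth moved with these quintiles, from a median of 27290 UMIs in the lowest to 14408 in the highest for RAC1i. Among RAC1i cells of 20000 to 30000 UMIs alone, a check added after seeing the data, JUNB still went from 277 to 891 CPM, IER2 from 247 to 692 CPM and FOS from 45.7 to 89.6 CPM. In Combo cells of that depth they went from 305 to 834 CPM, from 262 to 682 CPM and from 51.7 to 118 CPM, while JUN went from 265 down to 246 CPM (from 248 to 286 CPM over all depths).

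Ordered by summed chemokines and IL6, ATF3 did differ between quintiles. From the lowest to the highest quintile of RAC1i cells, ATF3 went from 81.5 to 190.3 CPM, JUNB from 332 to 824 CPM, IER2 from 330.3 to 604 CPM and FOSL2 from 29.0 to 48.9 CPM. FOSB went from 12.5 to 22.7 CPM, FOSL1 from 2.61 to 5.51 CPM, FOS from 55.3 to 75.5 CPM and JUN from 178 to 249 CPM. In Combo, ATF3 went from 78.2 to 199 CPM and JUNB from 339 to 779.7 CPM. Depth differed less here, with a median of 24685 and 21618 UMIs in the lowest and highest quintile of RAC1i. Within 20000 to 30000 UMIs, ATF3 in RAC1i was at 84.2 and 211 CPM. ATF3 thus differed more across the chemokine than across the metallothionein quintiles (2.34-fold and 1.17-fold in RAC1i), whereas JUNB, IER2, FOSB and FOS were higher toward the top of both. In DMSO, where most quintiles held a median of 0 or 1 UMI of either list, JUNB lay between 66.2 and 75.3 CPM in every quintile. Across the chemokine quintiles of DMSO, ATF3 went from 4.29 to 7.25 CPM (1.69-fold, 1.39 to 2.05) and FOSL1 from 0.807 to 1.96 CPM. Within 20000 to 30000 UMIs the intervals of the lowest and highest quintile overlapped for both. There ATF3 was at 4.27 (3.03 to 5.83) and 5.42 CPM (4.01 to 7.17), and FOSL1 at 0.438 (0.119 to 1.12) and 1.44 CPM (0.766 to 2.46). Across the metallothionein quintiles of DMSO the direction of FOS, FOSB and EGR1 was opposite to that in the treated libraries, from 111 to 87.1 CPM, from 61.8 to 46.1 CPM and from 69.2 to 57.2 CPM. JUND stayed between 154 and 199 CPM in every treated quintile by either list.

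**Figure D4:**
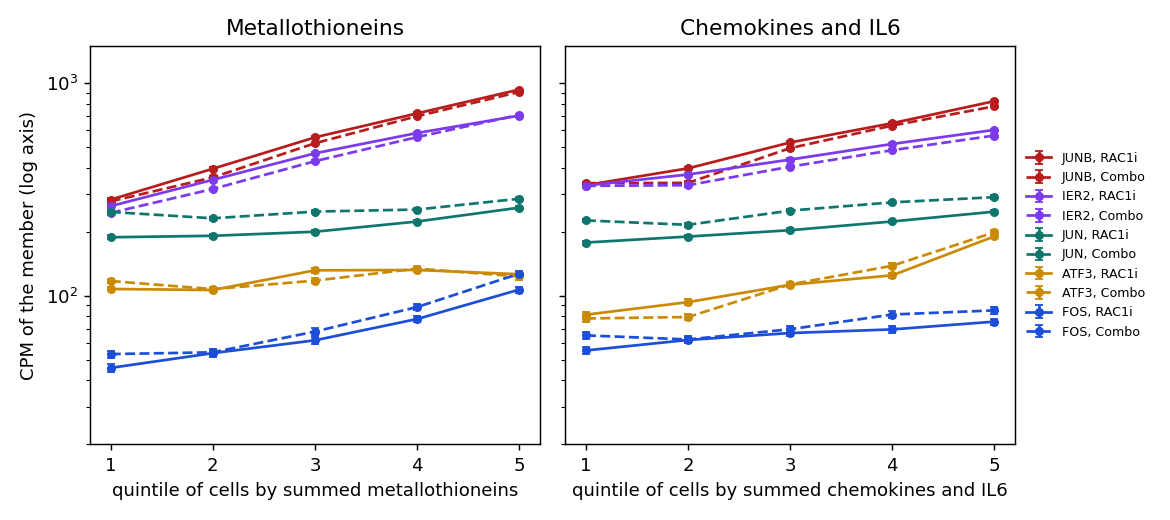
Level of 5 members (CPM, log axis) in quintiles of the thinned cells of RAC1i (solid) and Combo (dashed), ordered by summed metallothioneins (left) or by summed chemokines and IL6 (right); lines are Poisson 95% intervals. JUNB and IER2 are higher toward the right of both panels, and ATF3 is clearly higher toward the right for the chemokines, with a small difference for the metallothioneins.

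Co-expression was described across thinned cells of a library, which share that library and its depth, and carries no p-value. Of the 45 pairs of members, 37 for DMSO cells, 43 for RAC1i cells and all 45 for Combo cells were found together more often than the product of their shares gives. The excess was small for most, with a median of 1.07, 1.07 and 1.08 times the product. No such count was made over pairs of other genes, so it cannot be read as particular to the members. By Pearson correlation the strongest pair in DMSO was FOS with FOSB, which were together in 10.4% of cells against 6.45% by the product, 1.61 times as many, with a Pearson correlation of log2(UMIs + 1) of 0.22 over 6725 cells. It was 0.11 over 9200 cells in RAC1i and 0.15 over 7354 cells in Combo. FOSB with EGR1 were found together 1.44, 1.70 and 1.92 times as often as the product in DMSO, RAC1i and Combo, a measure that can be greater where the shares of cells are lower, and their correlation was 0.13, 0.07 and 0.10.

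JUNB with IER2 was the strongest pair by correlation in the treated libraries. Their correlation, 0.12 across DMSO cells, was 0.50 across RAC1i cells and 0.49 across Combo cells. Fewer UMIs lower a correlation, so the counting noise was also removed from the variances, a step chosen after seeing the data. The corrected correlation was 0.73 for DMSO and 0.82 for both treated libraries. Within quintiles of depth the uncorrected value was between 0.34 and 0.58 in RAC1i and between 0.35 and 0.55 in Combo, but between 0.02 and 0.18 in DMSO. The corrected value ranged there from 0.74 to 0.85 in RAC1i and from 0.76 to 0.81 in Combo, whereas in DMSO it ranged from 0.17 to 0.81 over 4 quintiles and could not be computed in the other, so the DMSO value is uncertain. For FOS with FOSB the corrected value, 0.86 across DMSO cells, was 0.55 and 0.58 across RAC1i and Combo cells, and in cells of at least 10000 UMIs 0.86, 0.43 and 0.56. FOSB averaged 0.25 UMIs per thinned DMSO cell and only 0.097 and 0.085 in RAC1i and Combo, so these corrected values are uncertain. FOS and FOSB were found together 1.61, 1.46 and 1.64 times as often as the product, so this measure showed no fall in Combo. With FOS and JUNB the corrected value went from 0.71 for DMSO cells to 0.25 and 0.29 for the treated ones. Among cells of at least 10000 UMIs these values were 0.71, 0.13 and 0.18. Uncorrected, the pair showed no fall, at 0.13 for DMSO and RAC1i cells alike and 0.15 for Combo cells. JUNB averaged only 0.35 UMIs per thinned DMSO cell, so the corrected DMSO value of this pair is uncertain as well. JUNB with ATF3, the members with the highest ratios, had a corrected value of 0.08 in RAC1i and 0.13 in Combo and were found together 1.08 and 1.09 times as often as the product. By correlation JUNB was tied less to ATF3 (0.10 and 0.12, uncorrected) than to IER2. Their co-occurrence cannot be set against that of JUNB with IER2 (1.06 in each treated library), which is bounded because each of these was in most cells.

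**Figure D5:**
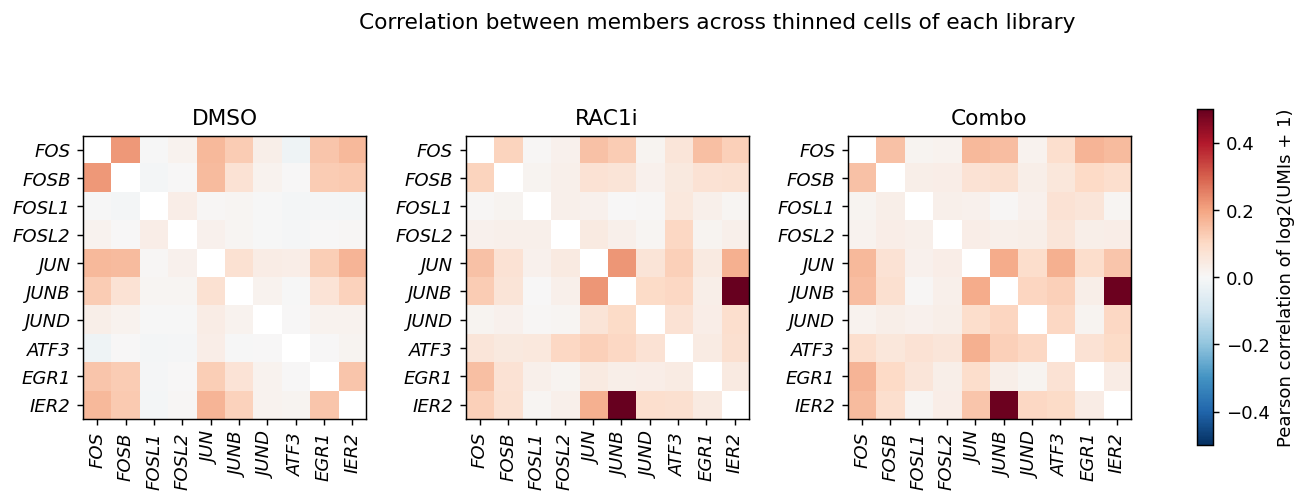
Pearson correlation of log2(UMIs + 1) between each pair of members across the thinned cells of DMSO (6725 cells), RAC1i (9200) and Combo (7354), with color from −0.5 to 0.5 and the diagonal left white. FOS with FOSB is the darkest pair in DMSO (0.22) and JUNB with IER2 in RAC1i (0.50) and Combo (0.49).

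Among 4181 other genes found in at least 10% of thinned cells of each library, the genes most like the summed members were ranked by the lowest of the 3 within-library correlations. CCNL1, a cyclin of RNA processing, came first, with 0.18 in DMSO, 0.39 in RAC1i and 0.38 in Combo. AMOTL2, CCN1, ZFP36L1, SPEN, KHDC4, ELF3, MTRNR2L12, CCN2 and AC020916.1 followed, and AMOTL2, CCN1 and CCN2 are textbook targets of YAP. CCNL1 was itself at 76.7 CPM in DMSO as against 355 CPM in RAC1i and 331 CPM in Combo, CCN1 at 69.0, 312 and 268 CPM, and ELF3, an epithelial ETS factor, at 181, 524 and 456 CPM. Others differed less, such as CCN2 at 60.5, 68.1 and 59.1 CPM and MTRNR2L12 at 113, 123 and 178 CPM. The correlation of ELF3 with JUNB was 0.49 and 0.48 in the treated libraries and 0.08 in DMSO. These correlations, like those of CCNL1, were not corrected for counting noise. JUNB, ELF3 and CCNL1 all had lower levels in DMSO, and fewer UMIs lower a correlation, so the libraries cannot be compared by these values.

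Single members were compared in the same way, except for ATF3 and FOSL1, which were in under 5% of thinned cells of at least one library. The genes that ranked first had low correlations in one library or more, and are given as a description. MT-ND2, a mitochondrial gene of respiratory complex I, came first for FOS (0.21 in DMSO, 0.13 in RAC1i and 0.14 in Combo), FOSB, EGR1 and JUNB. KCNQ1OT1, a nuclear noncoding RNA, came first for JUN (0.18, 0.13 and 0.16) and was next for FOS and FOSB. The last place went to MT-ND5 for FOS, AHNAK for FOSB and, after ELF3, MT-ND5 for JUNB, while ZFP36, whose protein destabilizes mRNAs, and MT-ND4L followed for EGR1. IER2 was nearest to AMOTL2, CCNL1 and KHDC4, with 0.32 and 0.33 for CCNL1 in the treated libraries, and JUN was also near CCNL1 and CCN1. FOSL2 had EPHA2, ANKRD33B and BPTF, and JUND had AMOTL2, H1FX and H1F0, all at 0.10 or less.

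Other immediate early genes mostly differed in the direction of JUNB. Of 44 on a list of immediate early genes without the members, 32 reached 10 CPM in RAC1i or DMSO, of which 23 were over 2-fold higher in RAC1i (71.9%, beside 13.1% of all genes) and 0 over 2-fold lower (24.6% of all genes), with a median log2 ratio of 2.09. Such a count includes genes that reached 10 CPM in RAC1i only, which had to be higher there. By a minimum of 10 CPM in DMSO, added after seeing the data, 12 of 20 were over 2-fold higher, where 8.83% of all 8145 genes were. In Combo 20 of 30 were higher (66.7%, beside 11.8%), with a median of 1.96. GADD45B, a stress sensor, was at 12.9 CPM in DMSO, beside 622 CPM in RAC1i and 575 CPM in Combo. KLF10, a zinc finger factor induced by TGF-beta, was at 10.0, 477 and 471 CPM, and DUSP4, a phosphatase of MAP kinases, at 1.27, 41.3 and 27.0 CPM. The 3 with the lowest ratio were BTG1 (0.628 in RAC1i), SOCS3 (0.791) and KLF6 (0.908), all within 2-fold. The list was written with earlier results of these data known.

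Other leucine zipper factors that can pair with the members were mixed, with 7 of 28 over 2-fold higher in RAC1i (25%, beside 13.1% of all genes), 3 over 2-fold lower (10.7%, beside 24.6%) and a median log2 ratio of 0.08. By the minimum in DMSO it was 5 and 3 of 25, where 8.83% of all genes were higher and 26.5% lower. DDIT3, a stress-induced partner of C/EBP proteins and of FOS, was at 47.0 CPM in DMSO, compared with 351 CPM in RAC1i and 330.3 CPM in Combo. ATF4, which controls amino acid and stress genes and acts upstream of ATF3 and DDIT3 in the integrated stress response, was at 159.7, 797 and 775 CPM, and TEF at 2.58, 13.5 and 12.2 CPM. JDP2, which represses AP-1 sites, was lower, at 73.9, 34.8 and 38.4 CPM, as were ATF6B (23.0, 5.98 and 6.96 CPM) and CREB3L2 (12.4, 5.41 and 5.55 CPM).

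Of 31 kinases and factors that act upstream of AP-1, 1 was over 2-fold higher in RAC1i (3.23%, beside 13.1% of all genes) and 4 were over 2-fold lower (12.9%, beside 24.6%), with a median log2 ratio of 0.06. By the minimum in DMSO it was 1 and 4 of 30 (3.33% and 13.3%, beside 8.83% and 26.5% of all genes). MAP3K1, which acts upstream of JNK, was the higher one, at 10.4 CPM in DMSO as against 36.8 CPM in RAC1i and 28.9 CPM in Combo. MAP2K3, which activates p38, and ELK4, which acts with the serum response factor, were 1.80-fold and 1.78-fold higher in RAC1i. MAP2K6, which also activates p38, was at 17.5, 1.76 and 1.82 CPM, ELK3 at 11.1, 2.75 and 2.68 CPM and MAPK3, which encodes ERK1, at 27.7, 10.5 and 11.4 CPM. Of 34 known AP-1 targets, 16 reached 10 CPM, with 6 over 2-fold higher in RAC1i (37.5%, beside 13.1% of all genes), 1 over 2-fold lower (6.25%, beside 24.6%) and a median log2 ratio of 0.43. By the minimum in DMSO, which leaves out IL6 and HBEGF, 2 of 12 were higher (16.7%, beside 8.83% of all genes). By that minimum 1 was lower (8.33%, beside 26.5%), with a median of −0.28, and so few genes cannot be set apart from all genes. MT2A, a metallothionein, was at 135, 6652 and 9518 CPM, IL6 at 2.78, 137 and 76.8 CPM, and HBEGF, a ligand of the EGF receptor, at 2.46, 34.0 and 35.6 CPM. HMGA2 was the lower one, at 87.7, 31.4 and 25.1 CPM, followed by TGFB1 (0.509 of the DMSO level in RAC1i) and HMGA1 (0.564), both within 2-fold.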

How the data were processed

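The authors deposited raw UMI counts for each gene and barcode, made with Cell Ranger 4.0.0 on GRCh38 per the submitters' processing notes. The kit was a 3′ kit that marks strand. The EZH2i library was not analysed here. The limits on cells were those of the study's methods: more than 1000 genes, no more than 20% of UMIs mitochondrial, and complexity above 0.8. No doublet caller was run and no doublets were removed. The share of UMIs inside kept cells was 96.0% (DMSO), 92.2% (RAC1i) and 88.5% (Combo).

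UMIs were summed per library, and a gene was called past a ratio of 2 among genes that reached 10 CPM in either library. No test or p-value is given, since each condition was 1 library. Intervals are exact: Poisson for a level, conditional for a ratio, Clopper-Pearson for a share. Correlations used log2(UMIs + 1) in cells thinned to 5000 UMIs with a fixed seed. Quintiles were formed within a library, ties in file order, with the S and G2M lists of Seurat 5.3.0. Named genes were all members, the 3 highest and 3 lowest ratios of each list, and the genes most correlated with the members. The members, lists and rules were chosen with earlier results of these data known. The ratio intervals, the calls past a ratio of 2 and the corrected correlation were tested on simulated data. The corrected correlation was simulated with more UMIs per cell than most members had here, so that check does not cover the scarcer members. Python 3.11.15, scipy 1.17.1, edgeR 4.0.16 and DESeq2 1.42.0 (scalings only) were used. Alternatives covered limits on cells, scaling, thinning, the fold and cells with the most UMIs.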

Additional observations from a re-analysis of the deposited data

Results flagged for a closer look

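The 10 members were also present in the barcodes that the limits on cells removed. These barcodes enter the comparisons above only in the alternative that kept every deposited barcode. Of all UMIs that were not mitochondrial, the members summed made up 771 CPM in the 2540 removed DMSO barcodes, 1888 CPM in the 1557 removed RAC1i barcodes and 1713 CPM in the 1518 removed Combo barcodes. What drew attention was a level above that of the control in data outside the main comparisons. The kept cells, on the same scale, held 937, 1693 and 1669 CPM. The removed barcodes were not alike between libraries. DMSO lost the most barcodes, yet kept cells held 96.0% of its UMIs, beside 92.2% for RAC1i and 88.5% for Combo. A removed DMSO barcode thus held fewer UMIs on average than a treated one, and a greater part of them was mitochondrial. The levels in removed barcodes therefore do not repeat the comparison of treated with control cells. JUNB was at 59.2, 624 and 509.6 CPM in the removed barcodes and ATF3 at 5.23, 143 and 128 CPM, whereas EGR1 was at 59.4, 20.2 and 21.2 CPM. FOS was not lower in the treated ones, at 83.7, 86.8 and 86.8 CPM, beside 108, 69.7 and 76.5 CPM in kept cells on this scale. JUN was at 161, 275 and 300 CPM in the removed barcodes, beside 199, 220 and 261 CPM in kept cells.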

How the results depend on the processing

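No paired analysis was possible because each condition was 1 library. Over 12 alternatives for levels, 1 of them added after seeing the data, and the 1.5-fold threshold, the count of members over 2-fold higher than DMSO was 4 throughout for RAC1i, and 4 or 5 for Combo (JUN was added with the mean over cells of CPM, at a log2 ratio of 1.04). With the mean over cells of CPM, which weights shallow cells as much as deep ones, the members over 2-fold lower numbered 1 in RAC1i over DMSO (EGR1, while FOSB was at a log2 ratio of −0.85) and 1 in Combo over DMSO (FOSB, while EGR1 was at −0.87). Thinning to 2500 UMIs also left 1 in Combo over DMSO (FOSB at −1.16, while EGR1 was at −0.96), and gave FOSL1 log2 ratios of 2.32 and 2.42 to DMSO. At 1.5-fold, 1 member (FOSL2) was lower in Combo over RAC1i, where none was at 2-fold. The direction of FOS turned: its log2 ratio to DMSO ranged from −0.74 to 0.18 for RAC1i and from −0.59 to 0.35 for Combo, and was above 0 with the mean over cells of CPM and with thinning to 2500 UMIs. JUND in Combo over DMSO ranged from −0.07 to 0.11. Of 33 log2 ratios of members and their medians, 26 kept their sign. Scaling by DESeq2 size factors moved every gene by 0.11 and 0.12 on the log2 scale in RAC1i and Combo over DMSO. Of 768 recomputed values other than these counts (log2 ratios, their medians, shares of cells, shares of genes and co-occurrence), 324 moved by more than their counting interval. The cause of these shifts was not tested. With 1 library per condition, counting error is small beside what a second culture could show, which was not measured.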
